A study of Rattus norvegicus with 26 samples.

Results

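The dentate gyrus (DG) of 10 vehicle-treated (Veh) rats, of the 26 rats sequenced in the study, was described as a profile of the region without drug. The members were chosen by their treatment label alone. All were male F344 rats of 6 months, and the tissue came from a single hemisphere of each rat. The rats received vehicle by repeated oral gavage, neither doxorubicin nor ABT-263, and were trained in behavioral tasks before the tissue was taken, so they were handled controls of a larger study of brain aging and not naive animals. The rats are numbered as in the labels, Veh 1 to Veh 6 and Veh 9 to Veh 12.

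The DG is the entry gate of the hippocampus. Its granule cells receive the perforant path from entorhinal cortex, fire sparsely, and project through the mossy fibers to hilar mossy cells and to CA3. Neurons are added to the granule cell layer in the adult. Around them lie interneurons, astrocytes, oligodendrocytes, microglia and vessels, and a bulk RNA sample mixes all of these. In such a sample, fewer cells of a type and less RNA per cell cannot be told apart.

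A normalized count is the number of reads on a gene divided by a scaling factor of its library. A library's normalized counts summed to between 15133200 and 20285400. The smallest step between low values placed the counted depth at an estimated 10166100 to 24326700 reads. Of 17910 genes listed, 15514 had a mean of at least 5 normalized counts, 12098 a mean of at least 50, and 11 were at 0 in every rat. The correlation of log2 values between libraries ranged from 0.943 to 0.987, and no libraries held identical values. The libraries were divided into 2 kinds by the sign of their score on the first principal component of all 26 libraries. This component held 28.4% of the variance within groups. The first kind was Veh 5, 6, 10 and 11, and the second was the other 6 rats. Scores ran from -48.5 to -11.4 in the first kind and from 10.4 to 26.4 in the second. They were graded within the first kind, with Veh 11 and Veh 10 at -48.5 and -36.4 and Veh 5 and Veh 6 at -15.0 and -11.4. Values within kinds can therefore still hold part of this component. Ribosomal protein genes took 0.620% to 1.22% of the counts in the first kind and 1.499% to 2.06% in the second, and mitochondrial genes 6.72% to 14.1% against 11.4% to 19.4%. What makes the kinds is not given in the labels, and its part in the results was not tested. Correlations are therefore given within kinds.

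Read counts were concentrated in few genes. The 10 highest genes held 15.9% of the counts, the 20 highest 19.8%, and 519 genes held the first 50%. Transcripts of the mitochondrial genome filled most of the upper ranks. Mt-co1, a subunit of cytochrome c oxidase, averaged 501856 ± 176450 normalized counts (SD, n = 10), ahead of Mt-co2 at 288304, Mt-atp6 at 273212, Mt-cyb at 215362, Mt-co3 at 180415, Mt-nd1 at 156857 and Mt-nd4 at 136139. Mt-nd5 and Mt-nd2 followed at 97571 and 95478. The mitochondrial models AY172581.9 and AY172581.24 carry no gene name and averaged 144295 and 137394. For both, each library of the first kind was below each library of the second.

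The highest single entry, AABR07000398.1, was a gene model without a gene name. It averaged 652404 and spanned 116110 to 2257140 normalized counts. It took 0.751% to 1.52% of the counts in the 6 rats numbered 1 to 6 and 4.18% to 11.1% in the 4 rats numbered 9 to 12. The models AABR07015057.1, at 93453, and AABR07015081.2, at 55576, were also among the 20 highest genes.

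The named nuclear genes at the top were genes of neurons and of glia. Ncdn (neurochondrin) averaged 57125 ± 14004 normalized counts. Apoe, the lipid carrier made mainly by astrocytes in the brain, averaged 48684 ± 12870. Mbp, the myelin basic protein, averaged 48656 ± 18463. Nrgn, a calmodulin-binding protein of dendritic spines, averaged 45505 ± 14769, and Slc17a7, the vesicular glutamate transporter of hippocampal principal cells, 45425 ± 10414. For Nrgn the kinds of library did not overlap, the first being lower, as for 12.4% of all 12098 genes tested.

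Markers of dentate granule cells were found in every rat, and so were markers of CA field pyramidal cells. The 155 genes on the cell type lists together took 1.51% ± 0.248 of the counts. The share of a list depends on which genes were put on it, so shares of lists do not rank cell types. Mature granule cell markers took 0.138% ± 0.0175, with a lowest value of 0.107% in Veh 12 and a highest of 0.162% in Veh 4. Of the 13 genes fixed, 12 were listed and 11 had a mean of at least 5. Prox1, the transcription factor that sets and keeps granule cell identity, ranged from 1680 to 3587 normalized counts with a median of 2349. C1ql2, a secreted C1q-like protein of mossy fiber synapses, ranged from 5295 to 9272 with a median of 7267, and Fam163b from 4796 to 7501 with a median of 6414. Each granule cell marker above the minimum was thus found in every rat. Prox1 was higher in each library of the first kind than in any of the second, and C1ql3 was lower. Of the 11 members with a mean of at least 50, 1 was higher and 1 lower in this way, against 10.5% and 12.4% of all 12098 genes. Lct was near its limit of detection, with a mean of 0.968 and a value of 0 in 5 rats, and Tdo2 was not analysed here.

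**Figure D1:**
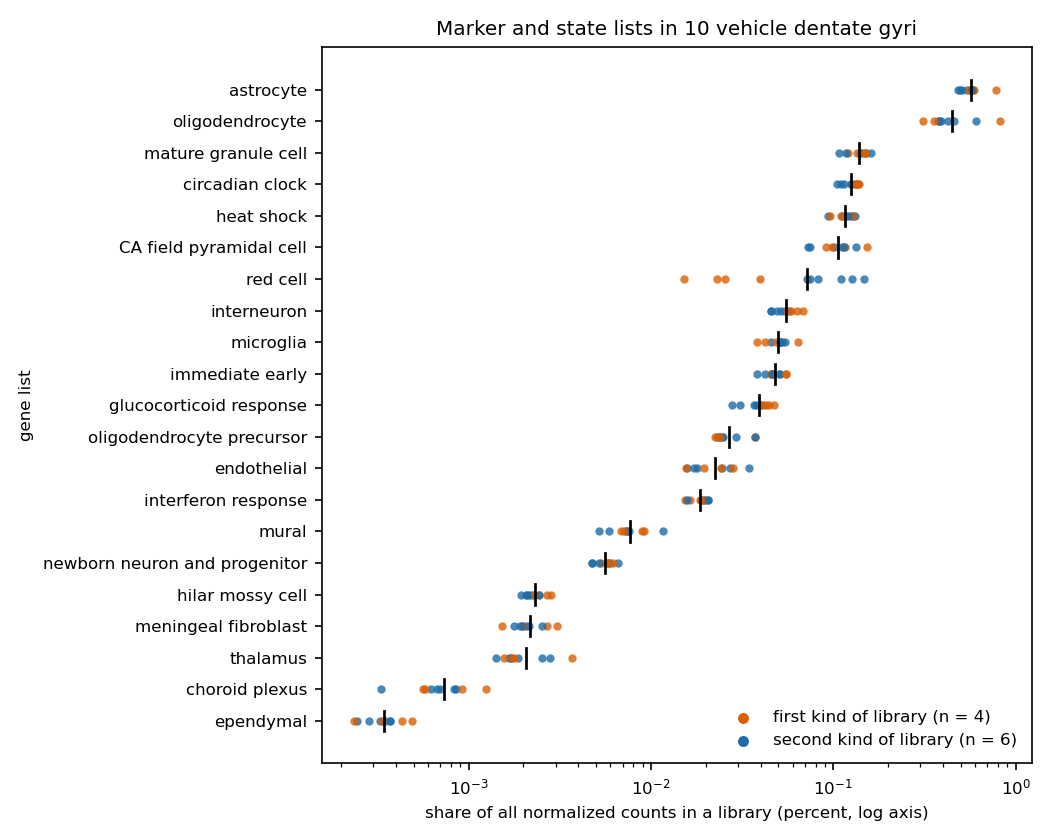
Share of all normalized counts taken by each marker or state list (percent, log axis), a point for each of the 10 rats and a black bar for the mean, with orange for the first and blue for the second kind of library. Astrocyte and oligodendrocyte lists lie highest, and the red cell list separates the kinds, from 0.0152% in Veh 11 to 0.147% in Veh 1.

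Newborn neuron and hilar mossy cell lists took small shares, and the interneuron list a larger one. The newborn neuron and progenitor list took 0.00560% ± 0.000603 of the counts. Its highest members were Neurod1, a neurogenic factor that granule cells keep, at a mean of 707.6 normalized counts, Dcx, the microtubule protein of migrating neurons, at 184.0, and Sox11 at 25.1. The hilar mossy cell list took 0.00232% ± 0.000284, led by the ghrelin receptor Ghsr at 125.7, Calcrl at 113.4 and Calb2 at 95.7. Interneuron markers took 0.0551% ± 0.00737. The GABA-synthesizing enzymes Gad1 and Gad2 averaged 2157 and 1789 normalized counts and Reln 1230. For Gad1 and Gad2 the first kind of library was higher without overlap. They were 2 of the 9 interneuron genes with a mean of at least 50, against 10.5% of all 12098 genes.

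Pyramidal cell markers of the CA fields took 0.107% ± 0.0249 of the counts, a share with a 2.12-fold range from Veh 9 to Veh 6. Wfs1, a marker of CA1 pyramidal cells, ranged from 1285 in Veh 10 to 10494 in Veh 6 with a median of 4745. Dkk3 ranged from 2176 to 5368, and Cpne4 from 1314 to 3901. All 10 listed members had a mean of at least 50. In 7 of them the SD of log2(normalized count + 1) over rats was above 0.5, against 10.1% of all 12098 genes with a mean of at least 50. Markers of the thalamus, which borders the hippocampus, took 0.00207% ± 0.000716, and this summed share was highest in Veh 6. The markers were led by Slc17a6 at a mean of 114.4, Tcf7l2 at 95.7 and Prkcd at 88.0. Of the 3 members with a mean of at least 50, 1 each was highest in Veh 2, Veh 6 and Veh 12.

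The astrocyte and oligodendrocyte lists took the largest shares of all lists, and these shares depend on the genes chosen. Mbp alone took 0.289% of the counts, and Slc17a7, a principal cell gene on no cell type list, took 0.268%. The astrocyte list took 0.569% ± 0.0834 of the counts, with 0.778% in Veh 6 and no more than 0.595% in any other rat. Gfap, the intermediate filament of astrocytes, ranged from 13086 to 28990 normalized counts with a median of 24173. The glutamine synthetase Glul averaged 19260 and S100b 15245. The oligodendrocyte list took 0.449% ± 0.152, from 0.310% in Veh 10 to 0.819% in Veh 6. With only the highest row of each gene counted, its mean share was 0.287%. Mbp ranged from 25851 to 84848 with a median of 47916, and Cnp averaged 4379. Oligodendrocyte precursor markers took 0.0270% ± 0.00567, led by Bcas1 at 2235, Pdgfra at 780.5 and Cspg4 at 699.2. The microglial list took 0.0499% ± 0.00702. Cx3cr1, the fractalkine receptor of microglia, ranged from 404.7 to 655.7 with a median of 482.1, and the highest microglial members were Csf1r at a mean of 2235, Ctss at 1257 and C1qa at 923.8.

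Lists of vascular and border cells took small shares of the counts. The endothelial list took 0.0225% ± 0.00629 and the mural list 0.00772% ± 0.00182. Slc2a1, the glucose transporter of the barrier, averaged 1424 normalized counts, Cldn5 975.0 and Flt1 526.4. The mural list was led by Pdgfrb at 446.1, Vtn at 267.6 and Myh11 at 120.3. Choroid plexus markers took 0.000731% ± 0.000248 of the counts. Ttr, the transthyretin that dominates choroid plexus RNA, averaged only 55.9, Kcne2 averaged 28.0 and Aqp1 11.2, and 7 of the 12 listed members had a mean below 5. Ependymal markers took 0.000344% ± 7.94e-05, led by Rsph1 at 37.2, Ccdc153 at 8.85 and Dynlrb2 at 5.45. Meningeal fibroblast markers took 0.00217% ± 0.000465, led by Igf2 at 121.4, Dcn at 73.3 and Slc6a13 at 47.9. Red cell genes took 0.0716% ± 0.0460. Hbb averaged 5424, Hba-a1 3571 and Hba-a2 2996, although near-identical globin genes can share reads. The red cell share ranged 9.64-fold, and each library of the first kind was below each of the second.

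The highest and lowest rats of the state lists differed by between 1.32-fold, for clock genes, and 1.70-fold, for glucocorticoid response genes. Immediate early genes, which report recent neuronal activity, took 0.0477% ± 0.00537 of the counts and were led by Egr3 at a mean of 1708, Arc at 1462 and Bdnf at 861.8. Clock genes took 0.126% ± 0.0121, led by Tef at 8692, Nr1d1 at 2013 and Cry2 at 1933. Glucocorticoid response genes took 0.0389% ± 0.00594. Fkbp5, a chaperone induced by corticosterone, stayed within 1739 to 1968 normalized counts over the 10 rats, while Ddit4 averaged 1312 and Sgk1 1005. Heat shock genes took 0.117% ± 0.0134, led by Hsp90aa1 at 11792, Hsph1 at 4707 and Hspd1 at 1353. The interferon response list took 0.0185% ± 0.00193, with Ifi27 at 1828 and Mx2 at 327.5.

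Receptor and channel genes were then read family by family, to show which subunits the tissue's transcripts carry. Transcript lengths were not available, and a longer transcript gives more reads at the same number of molecules. The values below are therefore read counts or shares of a family's read counts, and an order between genes is an order of read counts and not of molecules. Within each family, members with a mean of at least 5 were ordered by mean, and each was compared with the next within rats by a two-sided exact sign-flip permutation test. Of 143 neighboring pairs in 34 families, 110 passed an adjusted p of 0.05 (Benjamini-Hochberg) and 84 held the same order in each of the 10 rats. The smallest p that 10 rats allow is 0.00195, which gave an adjusted p of 0.00332. Of the 200 genes chosen, 186 were listed and 177 reached a mean of 5. Gabrq, Scn11a, Cacna1f, Kcnq1, Htr1d, Htr2b, Drd4, Adra2b and Atp1a4 stayed below it, and Shisa9, Gabra6, Scn10a, Cacna2d4, Kcnb2, Kcnd2, Chrna6, Chrnb3, Htr3b, Htr7, Drd3, Npy4r, Esr2 and Calm3 were not analysed here.

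AMPA receptors, which carry fast excitation, were counted mainly as Gria1 and Gria2. Gria1 averaged 8428 ± 790.2 and Gria2 8053 ± 1194 normalized counts, and their difference of 0.08 log2 units was smaller than its SD over rats of 0.29 (exact sign-flip permutation test, adjusted p = 0.543). Gria3 followed at 2035 and Gria4 at 752.3, each below its upper neighbor in all 10 rats. The AMPA auxiliary subunits were led by the cornichon Cnih2 at 7341. The TARP genes Cacng8, Cacng3, Cacng2, Cacng7 and Cacng4 lay between 1668 and 2783, and Cnih3 and Cacng5 were at 53.5 and 42.5.

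For NMDA receptors, the coincidence detectors of synaptic plasticity, the obligatory subunit gene Grin1 averaged 12936 ± 1582 and took 66.9% of the family's counts. Grin2b at 2540 and Grin2a at 1811 followed. They did not differ beyond their spread, by 0.51 ± 0.88 log2 units (adjusted p = 0.128 by the exact sign-flip permutation test, higher in 7 of 10 rats). Grin2a and Grin2c, at 1728, did not differ either (adjusted p = 0.942 by the same permutation test). Grin2d, Grin3b and Grin3a were at 146.5, 84.3 and 61.1. Kainate receptor genes formed a strict order in all 10 rats, from Grik5 at 5138 and Grik4 at 1688 through Grik2 at 683.6 and Grik3 at 297.0 to Grik1 at 86.7. Of the metabotropic receptors, the presynaptic Grm2 led at 2486. Grm3 at 868.1 and Grm5 at 822.5 were not separated (adjusted p = 0.675 by the same permutation test), and Grm7, Grm4, Grm8 and Grm6 had means from 409.3 to 35.2, with Grm8 and Grm6 not separated.

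Inhibitory receptors were spread over more subunits. Among GABA-A alpha genes Gabra4 averaged 1973 ± 130.1 and Gabra5 1601 ± 305.7. Gabra2 and Gabra3 followed at 1013 and 257.8. Of the beta genes, Gabrb1 and Gabrb2 were at 636.0 and 288.5. Gabrd, the delta subunit of the extrasynaptic receptors of granule cells, averaged 1353. Gabrg1 was at 215.8, and Gabrg3 and Gabre at 12.4 and 9.45. The metabotropic GABA-B genes gave more reads than the GABA-A genes named here, with Gabbr1 at 25764 and Gabbr2 at 8496.

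**Figure D2:**
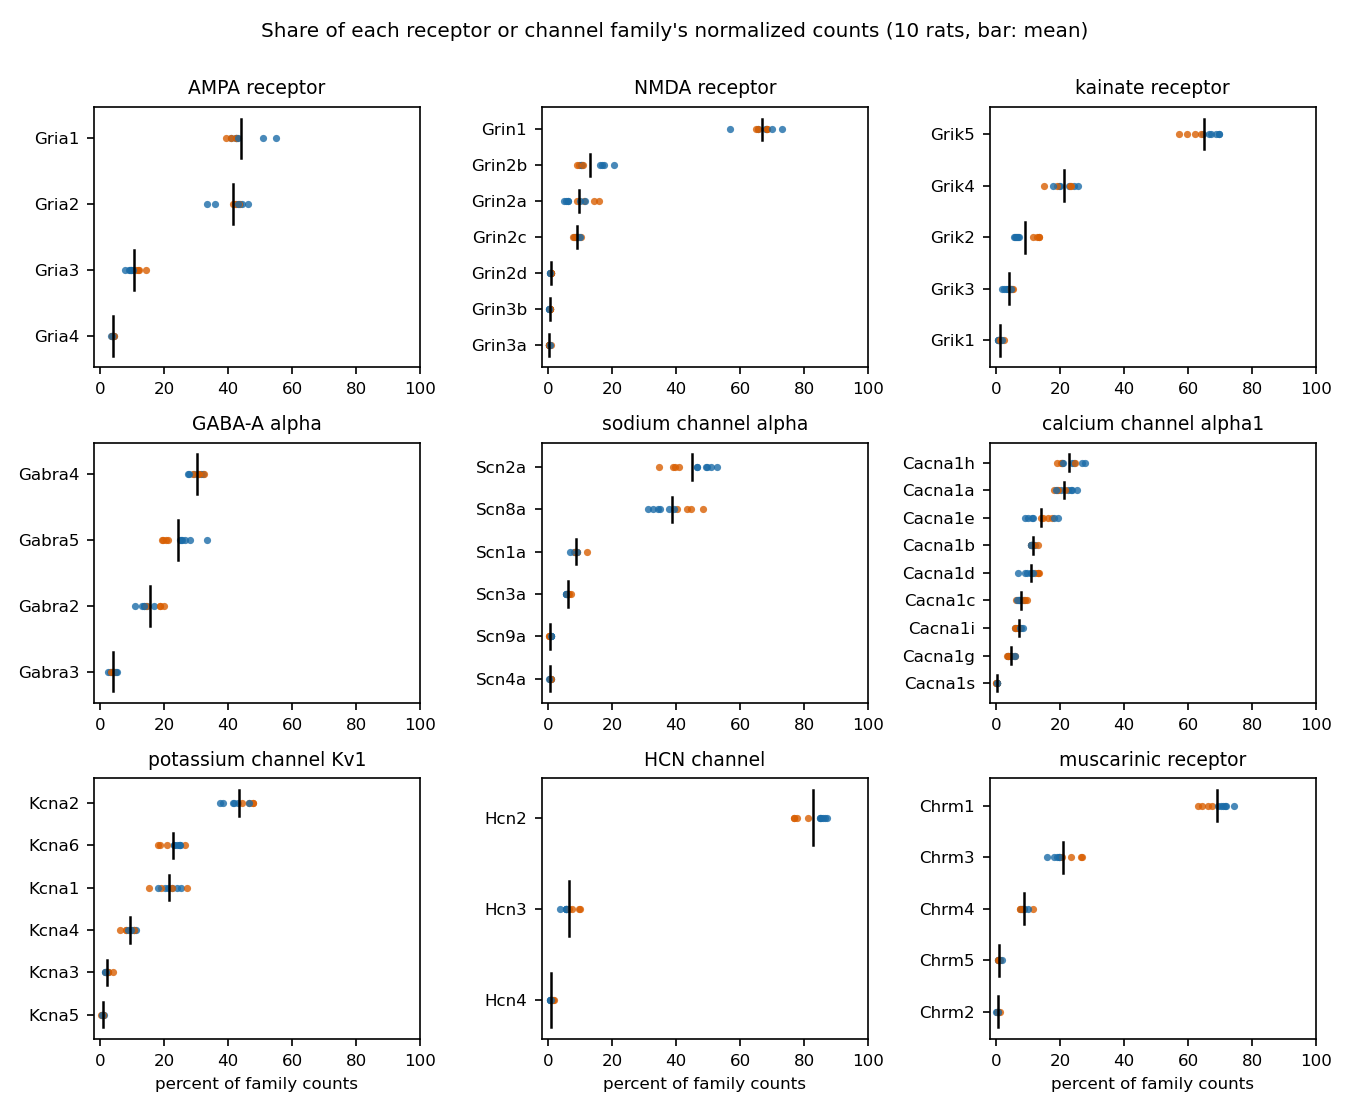
Share of each family's normalized counts (percent) taken by each member in 9 receptor and channel families (3 members not drawn), with a point per rat, a bar for the mean of 10 rats, and orange and blue for the first and second kind of library. Hcn2 and Grin1 held most of their families, Gria1 and Gria2 overlapped, and Gabra5, Scn2a and Hcn2 took smaller shares in the first kind of library.

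Sodium channel alpha reads were divided between Scn2a, at 4897, and Scn8a, at 4365, which were not separated over all 10 rats (adjusted p = 0.148 by the exact sign-flip permutation test). Their order turned with the kind of library: Scn2a was above Scn8a in each of the 6 rats of the second kind and below it in each of the 4 of the first. The same turn was seen in 2 of the 143 neighboring pairs of all families, the other being Kcnj11 and Kcnj3. Scn1a at 973.5 and Scn3a at 672.8 followed, and Scn9a and Scn4a were both at 73.5. Of the beta subunits, Scn3b was at 9535, Scn2b at 1624 and Scn4b at 502.1, in that order in all 10 rats. Calcium channel alpha1 reads were led by the T-type Cacna1h at 4034 and the P/Q-type Cacna1a at 3751, then Cacna1e at 2549, Cacna1b at 2054, Cacna1d at 2012, Cacna1c at 1403, Cacna1i at 1243 and Cacna1g at 787.2, and 5 of the 8 neighboring pairs passed the test. The skeletal muscle gene Cacna1s was at 25.0. The alpha2delta genes were Cacna2d3 at 1315, Cacna2d1 at 1089 and Cacna2d2 at 340.7.

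Among potassium channels, Kcna2 led the Kv1 genes at 2274, and Kcna6 at 1182 and Kcna1 at 1120 were not separated (adjusted p = 0.472 by the exact sign-flip permutation test). Kcna4, Kcna3 and Kcna5 were at 479.8, 115.1 and 37.1. Of the Kv2 to Kv4 genes listed, Kcnc4 averaged 2996, Kcnc1 1442, Kcnd3 1228, Kcnc2 484.3 and Kcnd1 323.0. Of the Kv7 genes, Kcnq5 was at 1326 and Kcnq3, a subunit of the M-current, at 680.1. The calcium-activated genes were Kcnma1 at 697.6, Kcnn1 at 263.6, Kcnn2 at 252.9, Kcnn3 at 143.5 and Kcnn4 at 7.41, of which Kcnn1 and Kcnn2 were not separated (exact sign-flip permutation test, adjusted p = 0.541). Inward rectifiers ran from Kcnj4 at 2358 and Kcnj9 at 1389 through Kcnj6, Kcnj11, Kcnj3, the astrocytic Kcnj10 at 570.5, Kcnj16 and Kcnj12 to Kcnj2 at 106.0, but only 5 of the 8 neighboring pairs passed the test. Kcnk1, a leak channel, took 50.1% of the K2P leak channel counts at 1456, and the others, Kcnk2, Kcnk4, Kcnk9, Kcnk12, Kcnk3 and Kcnk10, had means from 475.8 to 76.3. Of the 6 neighboring K2P pairs 3 passed the test and only 1 kept its order in all 10 rats, and Kcnk4 and Kcnk9, Kcnk12 and Kcnk3, and Kcnk3 and Kcnk10 were not separated. Hcn2 held 82.8% ± 4.16 of the HCN counts at 2938, and Hcn3 and Hcn4 were at 216.4 and 32.1, in that order in all 10 rats.

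Modulatory receptors were each dominated by few genes. Chrm1 took 69.0% of muscarinic counts at 3023, with Chrm3 at 903.0, Chrm4 at 372.9, Chrm5 at 41.1 and Chrm2 at 22.9. Nicotinic reads fell mainly on Chrnb2 at 690.5, Chrna7 at 357.0 and Chrna4 at 256.2, then Chrna2 at 81.4 and lower values for Chrna5, Chrna3 and Chrnb4. Htr1a led the serotonin receptors at 601.4, followed by Htr5b at 302.3 and Htr2c at 104.8. Htr5a, Htr3a, Htr1b, Htr4, Htr6 and Htr2a lay between 62.3 and 80.4, and none of the neighbors from Htr2c to Htr2a passed the test. Htr1f was at 11.1. Drd1 averaged 94.1, Drd2 21.6 and Drd5 9.12. Adra1d took 67.8% of adrenergic counts at 2230, ahead of Adra2c at 584.1, Adrb1 at 168.0, Adra1a at 102.6, Adra2a at 95.6, and Adrb3 and Adra1b at 23.8 and 16.1.

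Oprl1, the nociceptin receptor, averaged 422.0, while the classical opioid receptors Oprd1, Oprm1 and Oprk1 were at 32.7, 14.6 and 5.32. Adora1 took 91.3% ± 1.46 of adenosine receptor counts at 2820, with Adora2b, Adora2a and Adora3 at 172.3, 79.9 and 15.9. Npy1r, Npy5r and Npy2r averaged 257.0, 125.4 and 84.1. Ntrk2, the BDNF receptor, took 90.6% ± 1.31 of neurotrophin receptor counts at 10642, with Ntrk3 at 1037 and Ngfr at 9.21. The mineralocorticoid receptor gene Nr3c2, at 1284, was above the glucocorticoid receptor gene Nr3c1, at 815.1, in all 10 rats, and Pgr and Esr1 were at 62.8 and 6.35.

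Slc17a7 held 99.6% ± 0.263 of the vesicular glutamate transporter counts, with Slc17a6 at 114.4 and Slc17a8 at 38.6. Calm2 averaged 10293. Camk2b, at 37816, was above Camk2a, at 23507, in all 10 rats, with Camk2g at 5373 and Camk2d at 296.3.

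The receptor and channel genes varied between rats about as often as other genes, and the shares of members within families separated the kinds of library about as often as the levels of all genes did. Of the 147 family genes with a mean of at least 50, 1, Htr2c, had an SD above 1 log2 unit, against 0.760% of all genes tested, and 16 had an SD above 0.5, against 10.1%. In 17 of the 147, values were lower in each library of the first kind than in any of the second, against 12.4% of all genes, and in 9 they were higher, against 10.5%. Of the 177 shares of a member in its family, 15 were lower and 21 higher in the first kind without overlap, and 141 overlapped. Among those that did not overlap, Gabra5 took 19.3% to 21.2% in the first kind and 25.0% to 33.3% in the second. Scn2a took 34.8% to 40.8% and 46.4% to 52.9%, and Grik2 took 11.6% to 13.4% and 5.71% to 7.16%. Gabrb1 took 12.8% to 17.8% and 25.1% to 43.4%. The part of the library kind in these shares was not tested further.

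The spread between rats was small for most genes. Genes with means of 1000 to 10000 had a median SD of 0.22 log2 units, where counting alone would give 0.035. Genes with means of 50 to 200 had a median SD of 0.33, with 0.15 from counting. The lowest SD was that of Wdr33, an mRNA 3′ end processing factor, at 0.043 log2 units around 742.0 normalized counts, below the 0.054 that counting alone would give. Lmtk2, Usp47, Agtpbp1, Gart, Akap11, Ubqln1, Brpf3, Tada2b and the model LOC108348069 followed with SDs of up to 0.056. The SDs of Gart, 0.052, and LOC108348069, 0.050, were also below their counting SDs of 0.059 and 0.097, so their places among the lowest SDs are within counting error.

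**Figure D3:**
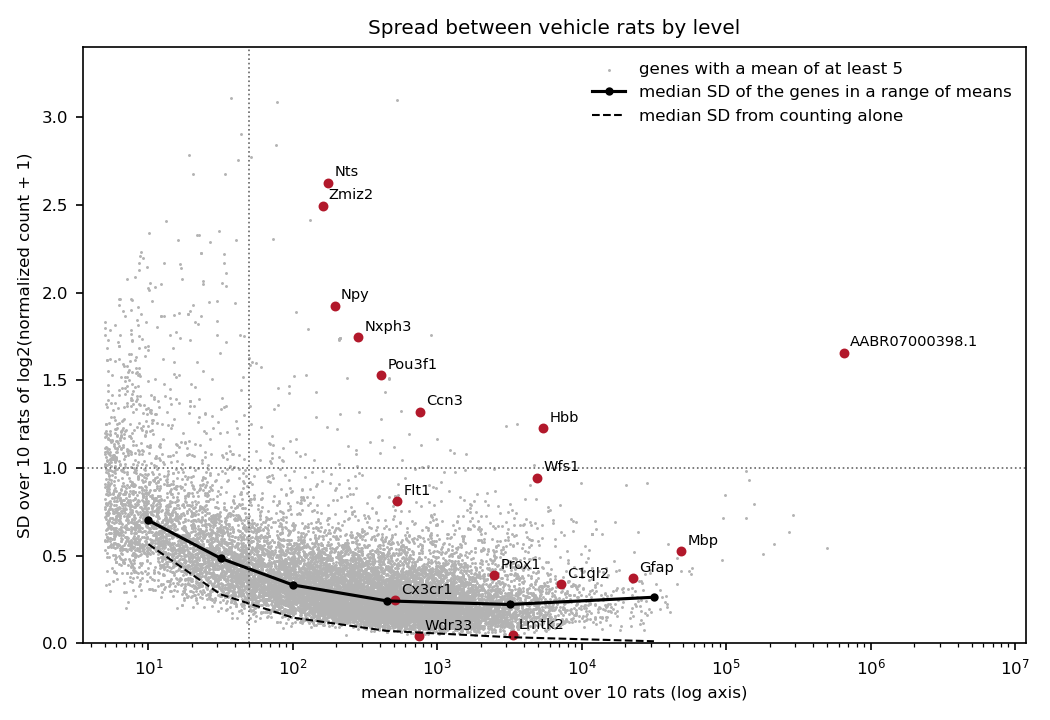
SD over 10 rats of log2(normalized count + 1), by gene, against the mean normalized count (log axis), starting at a mean of 5. The solid line is the median in a range of means, the dashed line the part from counting alone, dotted lines mark a mean of 50 and an SD of 1, and red points are named genes, with Nts and Npy far above and Wdr33 at the lower edge.

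Of 12098 genes with a mean of at least 50, 92 (0.760%) had an SD above 1. The number was 52 for deviations from the mean of each kind of library and 50 in the second kind alone, so part of this spread lay between the kinds. Of the 92, 36 were other named genes, among them the ribosomal protein-like Rps15al4. Structural RNAs made up 14, mitochondrial genes 12, ribosomal protein genes 4 and unnamed models 26. The widest were the model LOC103692716, from 2.73 to 2734, both copies of the spliceosomal U1 RNA, 5S_rRNA, Y_RNA and the 5_8S_rRNA copies, which carried near-identical values and are not separate measurements. Most of these RNAs lack poly(A) tails, and the libraries were made from poly(A) RNA. The model AABR07015078.2 belonged to the same upper ranks.

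Named genes with wide spread included neuropeptides. Nts, the precursor of neurotensin, was at 0 in Veh 10, at 25.9 to 256.4 in 8 rats and at 689.0 in Veh 6. Npy, the neuropeptide Y of hilar interneurons, was at 2.63 in Veh 12 and between 92.3 and 378.2 in the other 9 rats. The somatostatin gene Sst, often made by the same cells, was at 815.6 in Veh 12 and between 840.8 and 1342 elsewhere. Zmiz2, Slc25a51 and Gatd1 ranged from 3.08 to 530.7, from 1.72 to 360.6 and from 0.813 to 167.6. The lowest values of Npy, Zmiz2 and Gatd1, in Veh 12, Veh 2 and Veh 11, were not whole multiples of the estimated step of a read. That step was 1.07, 0.692 and 1.36 in these rats. Whether reads of these genes were split between gene models was not tested. Nxph3, a neurexin ligand, ranged from 37.9 to 978.8, with the high values in Veh 6 and Veh 12 alone.

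Genes that moved together over rats were sought among the 100 most variable ones, by average linkage of 1 minus the correlation within kinds at a height of 0.3. They formed 7 groups of at least 5 genes. With correlations pooled over the kinds, the grouping laid down in the plan, there were 5 groups, of 41, 15, 8, 6 and 5 genes, and the last 3 held the same genes as the groups of 8, 6 and 5 described here. Because the groups were built on these values, they are descriptions without a test. Over all pairs of genes with a mean of at least 50, the correlation within kinds had a median of 0.01, and 1.65% of pairs were above 0.8.

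A group of 17 held U1, 5S_rRNA, Y_RNA, the 5_8S_rRNA copies, Rn7sl1 and Gatd1, and was highest in Veh 3 and lowest in Veh 11. Another, of 14, held mainly unnamed mitochondrial models such as AY172581.12 and AY172581.1, and a further 13 held Rps21, Rpl37, Rps29, Rps15a, Psmb6, Hist2h2aa2 and 7 unnamed models. Both were highest in Veh 2 and lowest in Veh 11. The globins with Alas2, the erythroid enzyme of heme synthesis, formed a group of 6 that was highest in Veh 1 and lowest in Veh 11. Veh 11 held the lowest value of 22.9% of all 12098 genes with a mean of at least 50, more than any other rat. All 5 red cell genes with a mean of at least 50 had an SD above 1, against 0.760% of all genes tested. Within kinds of library none of the 5 did, with SDs of 0.46 to 0.57. Their spread thus lay mostly between the kinds, which were themselves set from these expression values.

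In the other 3 groups Veh 6 or Veh 10 lay at an extreme of the group mean, and the mean of Veh 12 lay on the same side as that of Veh 6. The group of 8 held Nts, Cd3e, Pou3f1, Ccn3, Ptpru, Igfbp4, Lyzl4 and a model. Pou3f1, a POU factor of CA1 pyramidal cells and of other neurons, was at 25.3 in Veh 10, at 1142 in Veh 6 and at 726.5 in Veh 12, with a median of 369.3. Ccn3 was at 111.6 in Veh 10, 2362 in Veh 6 and 1866 in Veh 12, and between 262.1 and 747.8 in the rest. Not all members ran this way. Cd3e and Lyzl4 were highest in Veh 3, at 114.7 and 234.7, and Cd3e was at 52.6 in Veh 12. Nts was lower in Veh 12, at 229.7, than in Veh 1, at 256.4. The group of 6 included Nxph3, Tshz2, Adgrl2, Htr2c and Gfra2. Htr2c, the serotonin 2C receptor, was at 371.9 in Veh 6 and 197.5 in Veh 12, and at 29.7 to 92.4 in the other 8 rats. Tshz2 departed from this, at 1805 in Veh 12 but higher in Veh 2, at 1379, and Veh 9, at 1234, than in Veh 6, at 1099. The group of 5 ran the other way. In it, Bhlhe23 was at 1.77 in Veh 6 and 10.7 in Veh 12 and at 51.6 to 78.6 elsewhere, and Tmem114 at 5.30 and 18.2 against 50.3 to 100.2. The remaining members were lowest in Veh 6 but did not all set Veh 12 apart. Rspo1 was at 7.95 in Veh 6 and at 64.4 in Veh 12, within the 50.3 to 113.3 of the other 8 rats. Rps15al4 was at 53.2 in Veh 6, 71.2 in Veh 11 and 148.9 in Veh 12, and Cst6 at 214.7, 330.1 and 284.4.

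Of the 10 CA field markers, 4 had their highest value in Veh 6, where 10.2% of all 12098 genes had theirs, 2 in Veh 3, 2 in Veh 12, and 1 each in Veh 5 and Veh 10, where 851 to 1447 of the 12098 genes had theirs. Their lowest values fell on Veh 10 for 5, against 10.9% of all genes, on Veh 12 for 3, against 11.9%, and on Veh 2 for 2, against 4.53%. The members named next were picked after their values were seen. Mpped1 was at 3313 in Veh 6 and 3516 in Veh 12 and at 504.6 to 2257 in the others, and Man1a1 at 418.7 and 325.2 against 121.7 to 222.8. Cpne4, Dkk3 and Bok ran opposite: Cpne4 was at 1435 in Veh 6 and 1314 in Veh 12, below the 2390 to 3901 of the other 8 rats. Rgs14 was highest in Veh 6, at 1898, but at 1082 in Veh 12. Amigo2 was lower in the first kind of library without overlap, as were 12.4% of all genes. The share of the whole CA list sums members that ran opposite ways.

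Oligodendrocyte genes were mostly highest in Veh 6. It held the highest value of 11 of the 12 members, against 10.2% of all genes, and for Mbp, Mobp and Mog the next rat was Veh 12. Veh 6 was not at the top of this list alone: it held the highest value of 6 of the 13 astrocyte genes and 3 of the 14 microglial genes, and the highest share of the astrocyte, microglial, interneuron and thalamus lists. Without Veh 6 and Veh 12, a choice made after the values were seen, the oligodendrocyte share was 0.384% ± 0.0442 and the CA share 0.0999% ± 0.0204. The part of tissue from outside the DG in these values was not tested.

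**Figure D4:**
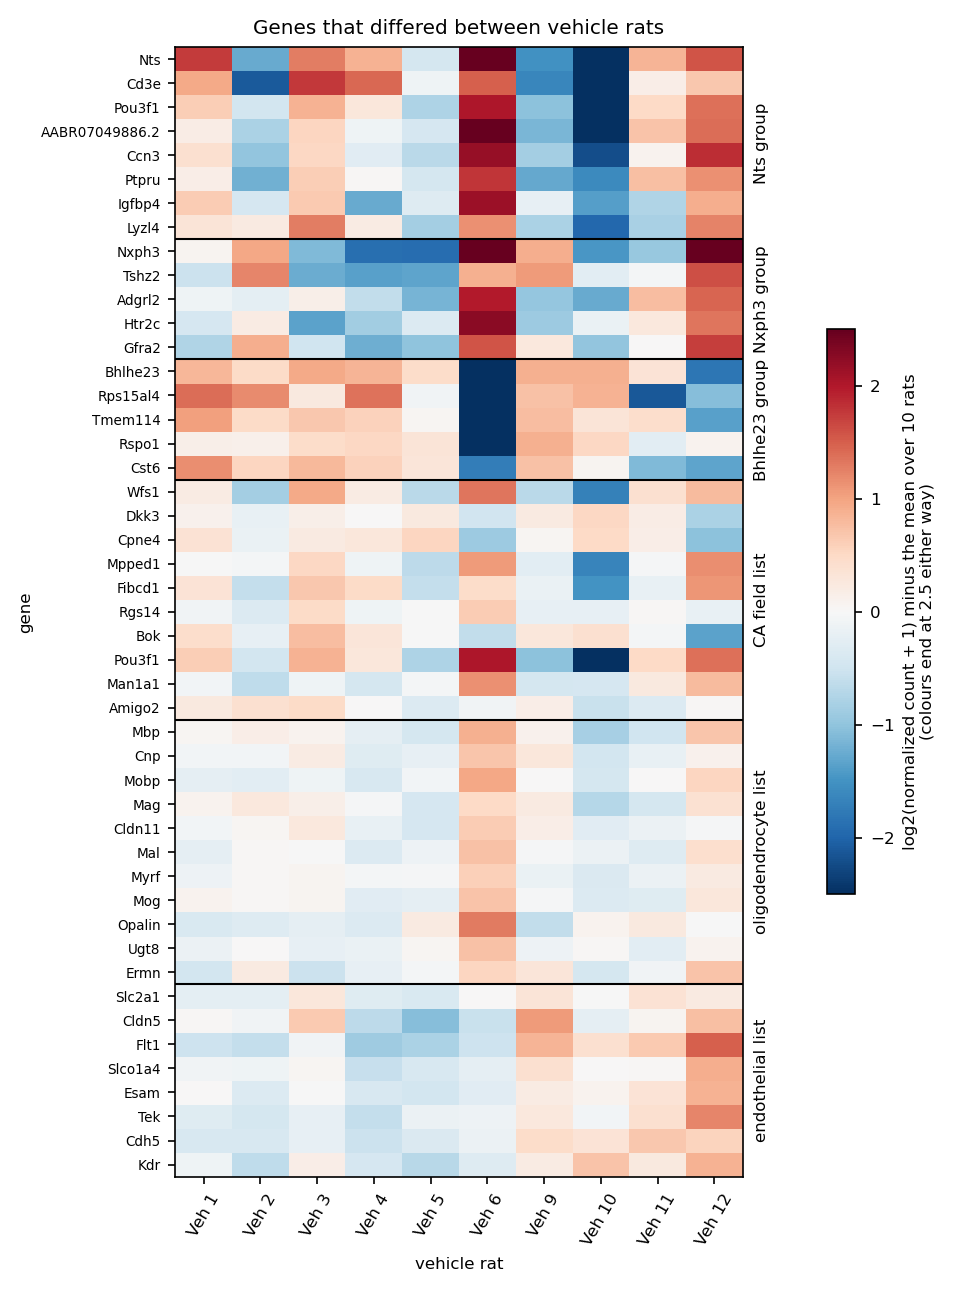
Difference of log2(normalized count + 1) from its mean over the 10 rats for the Nts, Nxph3 and Bhlhe23 groups and for the CA field, oligodendrocyte and endothelial lists (rows: genes with a mean of at least 50, of which 2 are not drawn, columns: rats, red higher, blue lower, colors end at 2.5 either way). Veh 6 and Veh 12 are high in the Nxph3 group, Veh 6 is lowest in the Bhlhe23 group, Veh 10 is lowest in the Nts group, and 5 endothelial genes are higher in each of Veh 9 to Veh 12 than in any of Veh 1 to Veh 6.

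Vessel genes were mostly highest in Veh 12, and part of them also split by rat number. Veh 12 held the highest value of 5 of the 8 endothelial and 6 of the 7 mural genes, against 1447 of 12098 genes. Veh 12 also held the highest share of both lists. The remaining endothelial genes were highest in Veh 9 or Veh 11, and the remaining mural gene in Veh 6. Flt1, the VEGF receptor of endothelium, was at 242.3 to 424.9 in Veh 1 to Veh 6 and at 599.9 to 1281 in Veh 9 to Veh 12. Kdr, Tek, Cdh5 and Esam did not overlap between these rats either, which made 5 of the 8 endothelial genes against 1.63% of all genes tested. None of the 8 was higher in Veh 1 to Veh 6, against 0.835% of all genes. Slc2a1, Cldn5 and Slco1a4 overlapped. Of the 7 mural genes 1, Rgs5, did not overlap, at 52.8 to 86.6 against 142.9 to 224.3, and of the 13 astrocyte genes 1, Slc1a2, at 2264 to 4204 against 5458 to 6879. The same rats held the high values of AABR07000398.1. In the other direction, 5S_rRNA was at 29.2 to 420.4 in Veh 1 to Veh 6 and at 0 to 14.8 in Veh 9 to Veh 12, and both copies of U1 were likewise higher in Veh 1 to Veh 6 without overlap. The part of these differences between libraries in the vessel gene values was not tested. The split by rat number was chosen after the values were seen, and the labels do not say what the numbers stand for.

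Within the fixed lists, the median correlation between members within kinds was 0.87 for oligodendrocyte, 0.86 for endothelial, 0.86 for red cell and 0.64 for mural genes. It was 0.45 for astrocyte, 0.42 for microglial, 0.19 for granule cell and 0.12 for interneuron genes, and near 0 for clock genes. Of the pairs of oligodendrocyte genes 46 of 66 were above 0.8, and of the pairs of granule cell genes 4 of 55, against 1.65% of all pairs of genes.

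Correlations over rats were tested for 12 chosen pairs, from deviations within kinds of library and with two-sided exact permutation p-values over all orders within kinds, adjusted over the 12 pairs. Of these, 5 passed an adjusted p of 0.05, of which 4 are given here. C1qa and C1qb, chains of complement C1q made by microglia, had r = 0.92 (rho = 0.95, exact permutation test, adjusted p = 0.00972 for r and 0.0125 for rho), 0.93 without the 2 rats farthest from the median of C1qa and 0.90 in the second kind. Egr1 and Arc, activity-induced genes, had r = 0.88 (rho = 0.85, exact permutation test, adjusted p = 0.0164 and 0.0292), 0.81 without the 2 farthest rats and 0.77 in the second kind. Without the 2 farthest rats of each pair, none of the 5 passed after adjustment over the 12 pairs, with an adjusted p of 0.0667 for C1qa and C1qb and of 0.139 for Egr1 and Arc (exact permutation tests).

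**Figure D5:**
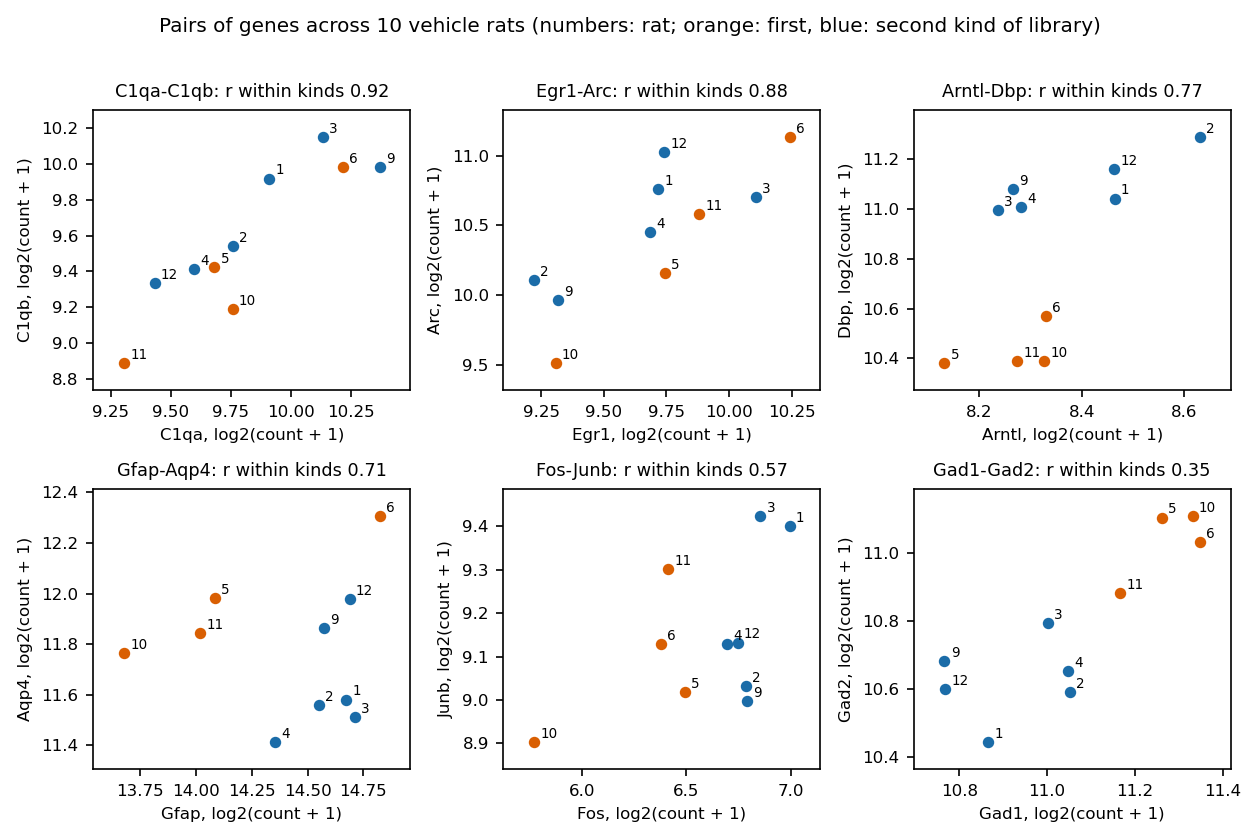
Log2(normalized count + 1) of both genes of 6 pairs, a point per rat with its number, orange for the first and blue for the second kind of library. C1qa-C1qb and Egr1-Arc rise together within both kinds, whereas the slope of Gad1-Gad2 comes mostly from the gap between kinds.

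Arntl, the clock activator, and its target Dbp had r = 0.77 (exact permutation test, adjusted p = 0.0479), but the rank correlation of 0.61 did not pass (adjusted p = 0.256 by the same permutation test), and r fell to 0.48 without Veh 2 and Veh 5. Gfap and Aqp4, both astrocytic, had r = 0.71 (exact permutation test, adjusted p = 0.0479) with a rho of 0.67 that did not pass (permutation test, adjusted p = 0.123). For Gfap and Aqp4, r was 0.57 without Veh 10 and Veh 11, 0.44 in the second kind alone and 0.07 pooled over the kinds. The other 7 pairs did not pass. Their r values were 0.66 for Per2 and Per3, 0.63 for Col1a1 and Col3a1, 0.58 for Fos and Arc, 0.57 for Fos and Junb, 0.47 for Arntl and Per3, 0.46 for Ttr and Kl, and 0.35 for Gad1 and Gad2. Without the 2 farthest rats Per2 and Per3 came to -0.14 and Col1a1 and Col3a1 to -0.62, so neither relation held. The number of pairs that passed fell from 5 to 2, C1qa-C1qb among them, without Veh 6, and to 3 without Veh 2, Veh 4, Veh 11 or Veh 12.

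For the 5 leading markers, the genes most alike over the 10 rats within kinds were read off as a description. Prox1 was followed most closely by Hectd4 (r = 0.97), Rnf216 (0.92) and Dop1b (0.92), C1ql2 by Rcn3 (0.99), Mri1 (0.98) and Cdipt (0.98), and Gfap by Ppp1r3g (0.97), Syngr2 (0.96) and RT1-A1 (0.96). Mbp was followed by Hdac5 (0.98), Lxn (0.98) and Mag (0.98), of which Mag is a myelin protein, and Cx3cr1 by Ednrb (0.96), Gab2 (0.96) and Ephb4 (0.95). These are the highest of 12098 genes over 10 rats, picked for their r, and Rnf216 had a pooled r of -0.37 with Prox1.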

How the data were processed

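Poly(A) RNA of 26 dentate gyri was sequenced on an Ion Proton with the Ion Total RNA-Seq kit. Per the labels and methods, the authors trimmed reads, aligned them to rn6 with STAR (2.5.3a) in Partek Flow and scaled counts by Median Ratio. The deposited values are a signal, read counts divided by a library factor, and not raw counts, so no count model was used. Of the small values between 0 and 5, 76.6% to 81.1% were whole multiples (within 0.02) of the commonest step, and estimated depths rest on that step. Rows with the same gene identifier (24012 rows) were summed to 17910 genes. The stated minimum of 5 is not applied in the file. The file gives no positions, so none are printed.

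Only Veh samples entered the results. The other 16 served to place libraries on the principal component (genes with a mean of at least 20). Values were analysed as log2(value + 1) with pandas 2.3.3, numpy 2.4.6 and scipy 1.17.1. The members, gene lists, families and pairs were chosen with earlier results of these data known. Named genes are the 20 highest, the 20 most and 10 least variable (mean of at least 50), the 5 markers, the 3 highest members of each list, family members with a mean of at least 5, up to 6 members of each group of variable genes (grouped by r pooled over kinds in the plan, within kinds in the text), and the 3 genes most like each marker; others (Sst, C1ql3, Lct, Tdo2, further CA, endothelial, mural and astrocyte genes, the last members of the groups) were named after their values were seen. Gene lengths in the reference table are genomic spans, so the planned order per kilobase was replaced by an order of read counts. Some genes, and results that need them, are not reported here. Near-identical genes and unnamed models can share or split reads. Each sample is a separate rat, per the labels. Tests were checked on simulated data. Alternatives were the pseudocount, the filter, TMM or equal totals, the highest row per gene, each kind of library alone, pooled or ranked correlations, and each rat left out.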

Additional observations from a re-analysis of the deposited data

Results flagged for a closer look

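A rat was noted where its gap to the nearest other rat was a larger part of the range of all 10 than Dixon's 95% critical value. Of 258 values tested 11 met it, close to the 1 in 20 that chance gives. Veh 6 was highest for the astrocyte share (0.778% against at most 0.595%) and for Cacng7 (2704 normalized counts against at most 2235). Veh 12 was lowest for Npy (2.63 against at least 92.3) and highest for Tada2b (1117 against at most 1048). Veh 10 was lowest for Nts (0 against at least 25.9) and for Tcf7l2 (29.8 against at least 69.0). Veh 11 was lowest for Ubqln1 (3204 against at least 3422) and highest for Cacna1i (1818 against at most 1307). Veh 5 was highest for Agtpbp1 (3936 against at most 3689) and lowest for Adora2b (98.1 against at least 148.4), and Veh 2 was lowest for Ttr (6.22 against at least 24.7).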

How the results depend on the processing

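No paired analysis was possible because only the Veh group entered and no 2 groups were compared. The 110 ordered pairs came to between 97 and 111 under the other pseudocounts, filters, rows and the second kind of library, and to between 104 and 109 with each rat left out. The first kind alone has 4 rats, too few for the sign-flip test to pass. The order per kilobase, the order by coding length and the share per kilobase were not run, since no transcript length was given. Genes detected stayed between 13633 and 15907, and between 15476 and 15527 with each rat left out. The 5 correlated pairs fell to 3 with TMM, with the highest row per gene and with Spearman's rho, and to 0 without the 2 farthest rats. They lay between 2 and 5 with each rat left out, with 2 without Veh 6 and 3 without Veh 2, 4, 11 or 12. Reversed values of r were -0.14 for Per2-Per3 and -0.62 for Col1a1-Col3a1 without the 2 farthest rats, -0.16 for Arntl-Per3 pooled over kinds, and, with single rats left out, -0.15 for Ttr-Kl without Veh 2 (up to 0.68 without another rat), -0.020 for Fos-Arc without Veh 10 (up to 0.72) and -0.012 for Col1a1-Col3a1 without Veh 11 (up to 0.72). The cause was not tested. The 92 variable genes became 558 at a mean of at least 5 and 44 at 200, 50 in the second kind alone, 52 as deviations from kind means, and 36 without structural, mitochondrial, ribosomal and unnamed models (added after seeing the data). With each rat left out they lay between 68 and 108. Leaving mitochondrial genes out of the total raised the list shares, the astrocyte share to 0.658%. Taking the highest row per gene lowered the oligodendrocyte share to 0.287%. Depth limits the genes below a mean of 50, where counting alone gives a median SD of 0.28 log2 units or more.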
